A study of Mus musculus with 20 samples.

Results

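The piRNA biogenesis factors described here are 9 genes chosen by name: Mov10l1, Pld6, Asz1, Gpat2, Pnldc1, Henmt1, Exd1, Fkbp6 and Ddx4. They are 9 of the 23853 gene symbols that the count tables of all 3 ages share, and all 9 passed the filter on low counts in each of the 12 comparisons made. RNA was sequenced from male mouse germ cells sorted by green fluorescence, on a mixed strain background, that were heterozygous (Tex15+/-) or knockout (Tex15-/-) for Tex15. Tex15 is a germ cell gene needed for male fertility and for silencing of young retrotransposons. The cells were taken at embryonic days 16.5 (e16.5) and 18.5 (e18.5), with 3 libraries of each genotype per age, and at postnatal day 2 (d2), with 4 of each, 20 libraries in all. What drives the fluorescent protein, which part of Tex15 was deleted and whether each library came from a separate animal are not given in the sources used here. The series text speaks of biological triplicates. P-values therefore measure the spread between these libraries, and wild-type cells were not analysed here.

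PIWI-interacting RNAs (piRNAs) are short germline RNAs that guide PIWI proteins to transposon transcripts and, in the fetal testis, to the loci that make them. Long single-stranded precursors are unwound and delivered to the outer face of mitochondria, cut there, trimmed at the 3′ end and methylated on the last sugar, while a second route in germ granules makes piRNAs from the transposon transcripts themselves. MOV10L1 is the RNA helicase that engages the precursors, PLD6 the mitochondrial nuclease linked to their cutting, and ASZ1 and GPAT2 are mitochondria-associated proteins required for that step. PNLDC1 is the 3′ trimming exonuclease and HENMT1 the methyltransferase that protects the finished end. EXD1 is an RNA-binding partner of TDRD12, FKBP6 a co-chaperone that works with HSP90 in loading, and DDX4 (mouse Vasa) the germ granule helicase of the second route.

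The stretch before the start site is shown for 5 members whose lowest mean was at the same age in both genotypes. Every e18.5 library of Asz1, Gpat2 and Ddx4 lay below every library of the other ages of its genotype, and the means of Mov10l1 and Henmt1 fell at each step. Pld6, whose mean was also lowest at e18.5 in both genotypes, and Fkbp6, whose mean was also lowest at d2, have 2 windows each and are not printed. Each run is the 250 bases before the start site, 5′ to 3′ on the gene's strand, from RefSeq on GRCm38.p6, whereas the submitters' processing notes name mm9 for the counts. Capitals mark 2 motifs, searched on both strands: CACGTG, an E-box bound by helix-loop-helix factors, and GCGC followed by any base and TGCGC, a form of the palindromic site bound by NRF1, called the NRF1 motif here. The windows lie at chr6:18109062-18109311 (minus strand) for Asz1, chr2:127424949-127425198 (plus strand) for Gpat2, chr13:112652311-112652560 (minus strand) for Ddx4, chr15:88982744-88982993 (plus strand) for Mov10l1 and chr3:108940307-108940556 (plus strand) for Henmt1.
Asz1: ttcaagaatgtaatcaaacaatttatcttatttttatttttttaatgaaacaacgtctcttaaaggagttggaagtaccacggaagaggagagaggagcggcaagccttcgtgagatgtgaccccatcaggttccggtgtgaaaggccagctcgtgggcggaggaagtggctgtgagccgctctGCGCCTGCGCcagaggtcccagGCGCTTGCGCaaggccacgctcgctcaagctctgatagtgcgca
Gpat2: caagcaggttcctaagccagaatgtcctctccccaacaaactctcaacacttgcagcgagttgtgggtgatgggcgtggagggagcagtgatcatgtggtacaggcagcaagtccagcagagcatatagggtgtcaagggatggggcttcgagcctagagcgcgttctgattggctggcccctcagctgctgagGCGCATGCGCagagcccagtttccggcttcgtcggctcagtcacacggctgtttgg
Ddx4: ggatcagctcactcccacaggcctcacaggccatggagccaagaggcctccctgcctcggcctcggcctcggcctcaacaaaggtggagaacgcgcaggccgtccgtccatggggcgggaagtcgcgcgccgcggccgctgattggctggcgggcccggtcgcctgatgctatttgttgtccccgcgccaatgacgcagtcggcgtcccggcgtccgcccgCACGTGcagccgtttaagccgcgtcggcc
Mov10l1: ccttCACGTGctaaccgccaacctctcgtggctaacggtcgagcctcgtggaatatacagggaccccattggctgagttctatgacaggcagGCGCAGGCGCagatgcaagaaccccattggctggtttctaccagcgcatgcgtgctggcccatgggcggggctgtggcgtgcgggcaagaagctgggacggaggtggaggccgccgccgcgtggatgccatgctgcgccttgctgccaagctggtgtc
Henmt1: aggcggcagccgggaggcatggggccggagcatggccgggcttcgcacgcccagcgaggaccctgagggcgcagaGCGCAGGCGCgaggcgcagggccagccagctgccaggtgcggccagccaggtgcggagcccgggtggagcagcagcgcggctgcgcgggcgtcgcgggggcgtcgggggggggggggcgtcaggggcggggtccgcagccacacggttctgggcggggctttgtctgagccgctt

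The NRF1 motif stood in the windows of 6 of the 8 members with an entry in the RefSeq table (Exd1, Gpat2, Henmt1, Asz1, Pld6 and Mov10l1), with 2 copies in Asz1. It stood in 3.74% of all 32851 windows of the same length, and in 9.71% of the 11685 windows with at least 11 CpG dinucleotides, the lowest number in a member window. CACGTG stood in 4 members (Fkbp6, Pld6, Ddx4 and Mov10l1), against 6.02% of all windows and 9.61% of those with at least 11 CpG. Member windows held 11 to 31 CpG, where the median of all windows was 6. Pld6 and Fkbp6 have 2 windows each, so 10 windows stand for the 8 genes. Counted by window, as the shares of all windows are, the NRF1 motif stood in 6 of the 10 and CACGTG in 5. Of the genes with their lowest mean at e18.5 in both genotypes, Asz1, Gpat2 and 1 of the 2 Pld6 windows hold the NRF1 motif, and Ddx4 holds CACGTG alone. Of those with their lowest mean at d2 in both, Mov10l1 and Henmt1 hold the NRF1 motif and Fkbp6 holds CACGTG alone. A match is a stretch of letters and was not tested as a binding site. Pnldc1 is named only.

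Total counts ran from 14.3 to 31.5 M (mega) per library, of which 7.78 to 14.2 M fell in genes, and repeats took 43.2% to 65.0% of the counts. Values are counts-per-million (CPM) of gene counts after TMM scaling of all 20 libraries together. Tex15 lay between 612 and 2102 CPM in heterozygous libraries. It was at or below 5.33 CPM in every knockout library except the d2 library labelled knockout replicate 2, which held 101 CPM from 799 counts. The d2 results are therefore also given without that library. As a check of the sorted cell type, 8 germ cell markers summed to 1582 to 3857 CPM, with Utf1, a chromatin factor of pluripotent and early germ cells, highest by mean at e16.5 and Dazl, an RNA-binding protein of germ cells, at e18.5 and d2, and all 8 had counts in every library. Sertoli cell markers summed to 17.3 to 77.1 CPM and stroma markers to 142 to 351 CPM over the 20 libraries. Cells were not counted, and in bulk libraries fewer cells of a type and less RNA per cell cannot be told apart.

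Levels between genes were compared per kilobase of exon (GENCODE M21, GRCm38). In heterozygous cells at e16.5 Mov10l1 had the highest level, 313 ± 44.2 CPM per kb (SD, n = 3), followed by Ddx4 at 201 ± 28.7. Fkbp6 (124 ± 9.93) and Asz1 (112 ± 21.8) came next and overlapped each other, as did Gpat2 (26.0 ± 1.29) and Pnldc1 (24.2 ± 3.41). The methyltransferase gene Henmt1 (16.6 ± 2.86), the nuclease gene Pld6 (5.44 ± 0.775) and Exd1 (3.09 ± 0.664) were lowest, each apart from its neighbours. The level per kb thus spanned 2 orders of magnitude between the precursor helicase and Exd1. The order rests on these exon lengths, which are not from the mm9 build named for the counts. Before division by length, Exd1 (6.042 kb of exon) had a mean of 18.7 CPM in these cells and Pld6 (0.948 kb) 5.15 CPM. At d2 Ddx4 ranked first in both genotypes, at 158 ± 25.8 CPM per kb in heterozygous cells (n = 4), but its libraries overlapped those of Mov10l1 (149 ± 14.02). Reads of Pnldc1 and Henmt1 may include those of genes on the opposite strand, AL589878.1 and Gm9857, which overlap their exons by up to 144 and 348 bases, since the use of strand in counting is not given in the sources used here.

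**Figure D1:**
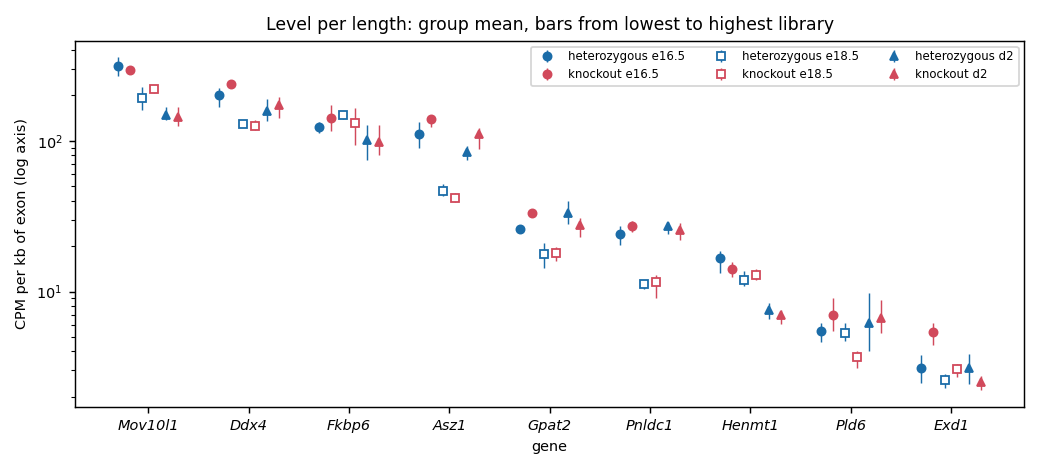
Level of each piRNA biogenesis factor in CPM per kb of exon (log axis) in the 6 groups, where points are group means and bars run from the lowest to the highest library. Mov10l1 is highest in the embryonic groups, and Exd1 is lowest in all 6, with means of 2.50 to 5.40 CPM per kb.

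The first question was whether the loss of Tex15 changed these transcripts at each age. None of the 9 passed the test at e16.5, e18.5 or d2 (edgeR quasi-likelihood F test, Benjamini-Hochberg adjustment over all genes, threshold 0.05), where 0.0061%, 2.33% and 2.8% of all genes tested passed. A count of 0 of 9 lies close to these shares. At e16.5 the 1 gene that passed was Tex15 itself (log2 fold change -8.82, adjusted p = 2.11e-10, edgeR). At d2, with knockout replicate 2 included, Tex15 did not pass (-4.97, SE 1.46, adjusted p = 0.167, edgeR). DESeq2 called 0 of 9 at each age as well. In the edgeR fits 2, 0 and 1 members had an unadjusted p under 0.05. Of all genes tested, 1266 of 16384, 2045 of 18075 and 2492 of 15343 did.

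At e16.5 the largest difference was in Exd1. Its heterozygous libraries held 22.9, 18.1 and 14.97 CPM and its knockout libraries 34.1, 37.1 and 26.6 CPM. The groups did not overlap, and the log2 fold change was 0.78 (SE 0.215, unadjusted p = 0.0034, adjusted p = 0.629, edgeR). Gpat2 held 71.8, 68.0 and 65.0 CPM in heterozygous and 85.5, 86.2 and 91.3 CPM in knockout libraries, again without overlap, with a log2 fold change of 0.34 (adjusted p = 0.629). Ddx4 was the remaining member whose groups did not overlap, at 678, 627 and 509 against 679, 756 and 723 CPM (log2 fold change 0.23, adjusted p = 0.673). Thus 3 of 9 members had every knockout library above every heterozygous one, where 7.17% of all genes did (13.2% in either direction). Across the 9, log2 fold changes ran from -0.27 (Henmt1) to 0.78, 7 were above 0, and the median was 0.23 where that of all genes was -0.0085. The median was 0.14 for other piRNA pathway genes (17 of 21 above 0) and 0.38 for germ cell markers (6 of 8). It was -0.78 for the Sertoli cell markers tested (1 of 6 above 0) and -1.61 for Leydig cell markers (1 of 6). For stroma markers it was -1.37 (1 of 10), and 0 genes of these lists passed. The Leydig sum was 113 CPM in heterozygous replicate 2 and 26.1 and 32.1 CPM in replicates 1 and 3. In knockout libraries it was 21.6 to 29.5 CPM. The 95% intervals of the 9 members reached from -0.67 (Henmt1) to 1.25 (Exd1). The sum of 11 stroma markers lay between 163 and 319.9 CPM in heterozygous libraries and between 142 and 176 CPM in knockout ones, and no marker of that list was at 0. With the markers of other cells as a covariate the log2 fold changes of Exd1, Gpat2 and Ddx4 were 0.57, 0.30 and 0.13.

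**Figure D2:**
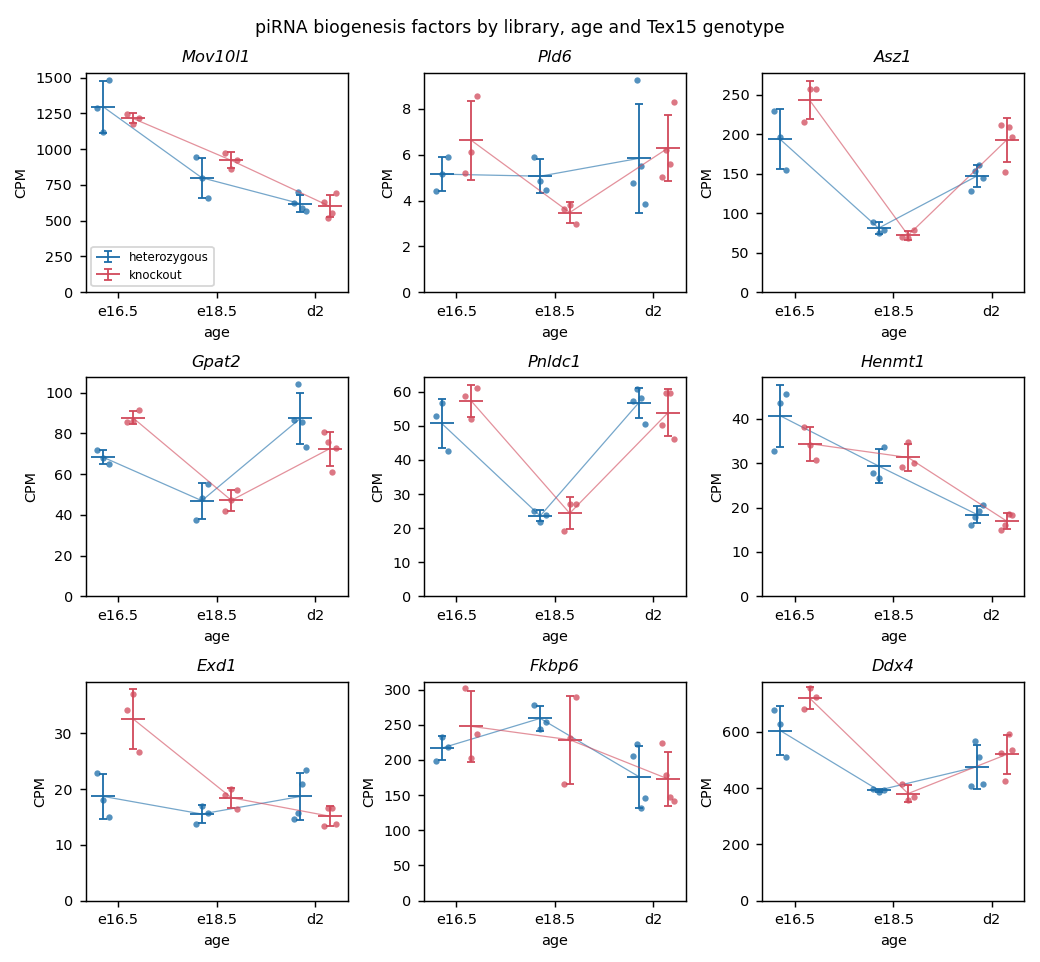
Scaled CPM of each of the 9 genes in every library, by age and genotype, with group means. The means of Asz1, Gpat2, Pnldc1, Ddx4 and Pld6 are lowest at e18.5 in both genotypes, and those of Mov10l1, Henmt1 and Fkbp6 at d2.

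At e18.5 log2 fold changes ran from -0.55 (Pld6) to 0.25 (Exd1), and Gpat2 (0.0036), Pnldc1 (0.043) and Ddx4 (-0.047) lay nearest 0. Gpat2 measured 47.0 ± 8.87 CPM in heterozygous and 47.1 ± 5.13 CPM in knockout cells (SD, n = 3), and the trimmer gene Pnldc1 23.6 ± 1.64 and 24.4 ± 4.62. The precursor helicase gene Mov10l1 measured 799 ± 141 and 921 ± 56.4 CPM, with a log2 fold change of 0.20 (adjusted p = 0.596, edgeR) and overlapping libraries. Only Pld6 had groups without overlap, at 5.88, 4.86 and 4.44 CPM in heterozygous and 3.64, 3.83 and 2.96 CPM in knockout libraries. Its log2 fold change was -0.55 (SE 0.379, adjusted p = 0.662, edgeR), on 34 to 86 counts per library, and 7.36% of all genes had every knockout library below every heterozygous one. The median log2 fold change of the 9 was 0.0036 against -0.010 for all genes, and the 95% intervals reached from -1.34 (Pld6) to 0.71 (Exd1). The sum of 7 macrophage and white blood cell markers lay between 30.3 and 43.0 CPM in heterozygous libraries and between 89.5 and 109 CPM in knockout ones. Of these 7, Lyz2 was at 0 in 1 knockout library at this age. Of the 5 tested, 4 had a log2 fold change above 0 and 2 passed as higher, with single values from -0.68 to 1.81. The 6 endothelial markers summed to 98.8 to 101 CPM and 114 to 125 CPM. With the marker covariate 0 of 9 members passed.

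At d2 the mitochondrial scaffold gene Asz1 differed most. Heterozygous libraries held 129, 153, 162 and 145 CPM and knockout libraries 212, 153, 209.7 and 196 CPM. All knockout libraries but replicate 2 lay above all heterozygous ones, and the log2 fold change of 0.38 did not pass (SE 0.130, unadjusted p = 0.00783, adjusted p = 0.129, edgeR). Replicate 2 is the library that held 101 CPM of Tex15. Of the knockout d2 libraries it also had the highest stroma (351 CPM) and endothelial (107 CPM) marker sums. Its germ cell (2544 CPM) and macrophage and white blood cell (43.7 CPM) sums and its gene counts (7.78 M) were the lowest of them. The part of these differences in its Asz1 value was not tested. Without knockout replicate 2 the log2 fold change of Asz1 was 0.48 and passed (adjusted p = 0.0392). Asz1 was the 1 member called in that fit, where all-gene calls went from 430 to 573. Leaving out any other d2 library gave adjusted p from 0.142 to 0.328. The other 8 members ran from -0.31 (Exd1) to 0.12 (Ddx4) in log2 fold change. No member's groups were apart (9.72% of all genes), and the 95% intervals reached from -0.82 (Exd1) to 0.87 (Pld6). The sum of 9 Sertoli cell markers lay between 67.7 and 77.1 CPM in heterozygous libraries and between 49.7 and 66.1 CPM in knockout ones. Of the 7 Sertoli cell markers tested, 4 had a log2 fold change above 0 and 1 passed as lower, with a median of 0.0053. For stroma markers the median was 0.38 (8 of 11 above 0), and 0 passed. With the marker covariate the log2 fold change of Asz1 was 0.44 (adjusted p = 0.131).

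**Figure D3:**
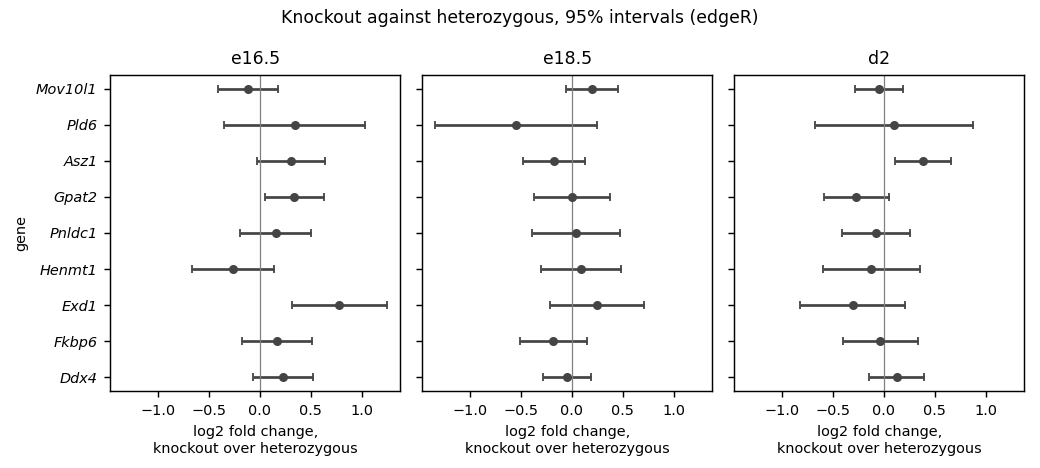
Log2 fold change of knockout against heterozygous cells for each gene at each age, with 95% intervals from the edgeR fit. None of the 9 passed at any age, and Exd1 at e16.5 lies farthest from 0, at 0.78.

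The second question was how the genes changed with age. Each age was deposited as a table of its own, and the d2 table lists a partly different set of symbols. Age therefore cannot be told apart from table or from anything else that differed between the tables. In heterozygous cells 5 members fell from e16.5 to e18.5 and 0 rose, where 10.2% of all genes fell and 7.63% rose. From e18.5 to d2, 3 rose and 3 fell (24.1% and 27% of all genes), and over the whole span 4 fell and 0 rose (22.7% and 20.5%). In knockout cells 6 fell and 0 rose in the first step (17.7% and 17.5%), 5 rose and 2 fell in the second (25.3% and 29.7%), and 5 fell and 0 rose over the span (21.9% and 20.8%). Without the d2 library labelled knockout replicate 2, 4 rose and 2 fell in the second step and 5 fell over the span. Both steps share the e18.5 libraries. The sum of Sertoli cell markers in heterozygous libraries was 26.0 to 37.9 CPM (e16.5), 41.2 to 42.5 CPM (e18.5) and 67.7 to 77.1 CPM (d2). In knockout libraries it was 17.3 to 26.1, 39.0 to 44.1 and 49.7 to 66.1 CPM. The stroma sum was 163 to 319.9, 233 to 283 and 181 to 269 CPM in heterozygous libraries. In knockout libraries it was 142 to 176, 236 to 253 and 225 to 351 CPM, and there 5 of the 11 stroma markers rose and 1 fell from e16.5 to e18.5, and 7 and 1 over the span. Of the 8 germ cell markers, 6 fell and 1 rose in the first step in knockout cells (median log2 fold change -1.61), and 4 and 2 in heterozygous cells (-0.75). In the second step 4 rose and 2 fell in knockout (0.85) and 2 and 1 in heterozygous cells (0.14). The part of these markers in the age differences was not tested.

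These splits depend on the scaling. With the totals of gene and repeat counts as library sizes, heterozygous cells gave 5 rises and 0 falls from e18.5 to d2. From e16.5 to d2 they gave 2 and 2, and knockout cells gave 5 and 1 from e18.5 to d2. Over all 18619 genes tested the same scaling gave 6361 rises and 3473 falls, 6130 and 2490, and 6127 and 4114, in that order. That scaling moved the median log2 fold change of all genes from -0.084 to 0.26 from e18.5 to d2 and from -0.031 to 0.36 from e16.5 to d2 in heterozygous cells. With no TMM factors the span gave 1 rise and 2 falls in heterozygous cells, where all genes gave 4686 and 3439. With median-ratio factors the second step gave 4 rises and 3 falls in knockout cells, where all genes gave 4345 and 5881. Changes are given relative to TMM scaling on genes.

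The mitochondrial genes Asz1 and Gpat2 dipped at e18.5 in both genotypes. Asz1 held 230.1, 196 and 154 CPM at e16.5, then 89.2, 74.8 and 79.3 at e18.5, then 129, 153, 162 and 145 at d2 in heterozygous libraries. In knockout libraries it held 215, 257 and 257, then 69.7, 68.1 and 78.2, then 212, 153, 209.7 and 196 CPM. No e18.5 library reached the level of any library of the other ages. Asz1 fell 2.39-fold (log2 fold change -1.25, SE 0.154, adjusted p = 3.77e-06, edgeR) and then rose 1.81-fold (adjusted p = 2.27e-05) in heterozygous cells, and fell 3.37-fold (adjusted p = 2.56e-08) and rose 2.67-fold (adjusted p = 1.32e-08) in knockout cells. These 4 calls held under all alternatives run. At d2 Asz1 was below its e16.5 level in heterozygous cells (log2 fold change -0.40, adjusted p = 0.0236). That call ended in 6 of 15 alternatives, without heterozygous e16.5 replicate 1 or 2 or d2 replicate 1 among them.

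Gpat2, which encodes an acyltransferase-family protein, held 71.8, 68.0 and 65.0 CPM at e16.5, then 37.6, 48.2 and 55.2 at e18.5, then 86.5, 104, 85.4 and 73.3 at d2 in heterozygous libraries. The knockout libraries held 85.5, 86.2 and 91.3, then 41.8, 47.5 and 52.0, then 80.5, 75.8, 60.9 and 72.9 CPM. The e18.5 libraries were again below those of both other ages. The rise from e18.5 to d2 passed in both genotypes (log2 fold change 0.90, adjusted p = 3.43e-05, and 0.62, adjusted p = 0.00144), and so did the fall from e16.5 in knockout cells (-0.90, adjusted p = 1.76e-04). The fall in heterozygous cells (-0.54, adjusted p = 0.0226) was lost in 7 of 14 alternatives, without heterozygous e16.5 replicate 1 or 2 or e18.5 replicate 1 or 2 among them. From e16.5 to d2 Gpat2 differed in direction between genotypes, and neither change passed. The log2 fold changes were 0.36 in heterozygous (adjusted p = 0.0623, edgeR) and -0.27 in knockout cells (adjusted p = 0.152, edgeR). Pld6, the nuclease gene, was counted thinly, at 34 to 132 counts per library. Its knockout libraries lay at 5.21, 6.11 and 8.57 CPM at e16.5, then 3.64, 3.83 and 2.96 at e18.5, then 5.05, 6.22, 5.60 and 8.32 at d2. The rise of 0.86 from e18.5 to d2 in knockout cells (adjusted p = 0.0426) was lost in 10 of 15 alternatives, with each knockout e18.5 library left out and with d2 replicate 2 or 4 left out among them. In the fit with the replicate number as a block its adjusted p was 0.0689.

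The genes for finishing the 3′ end took opposite courses from e18.5 to d2. Pnldc1, the trimmer, held 52.8, 56.6 and 42.7 CPM at e16.5, then 25.0, 21.8 and 23.9 at e18.5, then 57.3, 60.7, 58.2 and 50.7 at d2 in heterozygous libraries, and 58.8, 52.0 and 61.1, then 19.0, 27.0 and 27.1, then 50.2, 59.6, 59.7 and 46.1 in knockout libraries. Every e18.5 library was below every library of the other ages. It fell 2.15-fold and 2.35-fold (adjusted p = 1.27e-04 and 1.19e-05, edgeR) and rose 2.40-fold and 2.21-fold (adjusted p = 9.81e-07 and 3.14e-06) in heterozygous and knockout cells, and these 4 calls held under all alternatives run. Between e16.5 and d2 its log2 fold changes were 0.16 (95% interval -0.17 to 0.50) and -0.089 (-0.42 to 0.24), neither past the test.

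Henmt1, the methyltransferase gene, had no such dip. Heterozygous libraries held 32.7, 43.7 and 45.7 CPM at e16.5, then 27.8, 26.7 and 33.7 at e18.5, then 16.1, 17.9, 19.2 and 20.6 at d2, and knockout libraries 38.3, 34.2 and 30.7, then 29.2, 34.7 and 30.0, then 14.9, 16.0, 18.6 and 18.4. All d2 libraries were below all embryonic ones. From e18.5 to d2 Henmt1 fell by 0.67 in heterozygous (adjusted p = 0.00315) and by 0.88 in knockout cells (adjusted p = 2.15e-04) on the log2 scale. Over the span it fell 2.21-fold (adjusted p = 1.11e-05) and 2.02-fold (adjusted p = 5.22e-05). The e16.5 to e18.5 step did not pass in either genotype, and the heterozygous fall from e18.5 to d2 was lost with gene and repeat totals (adjusted p = 0.148). Per kb, Pnldc1 (11.3 ± 0.784 CPM per kb) overlapped Henmt1 (11.99 ± 1.55) in heterozygous cells at e18.5, and at d2 every Pnldc1 library (27.1 ± 2.05) lay above every Henmt1 library (7.53 ± 0.785).

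The 2 helicase genes also differed from each other. Mov10l1 declined at each step, from 1285, 1116 and 1482 CPM at e16.5 to 943, 795 and 660.1 at e18.5, then 621, 699, 589 and 566 at d2 in heterozygous libraries. Knockout libraries went from 1247, 1178 and 1218 to 976, 863 and 923 and 629.9, 521, 555 and 692 CPM. The fall over the span was 2.09-fold and 2.02-fold (adjusted p = 1.27e-07 and 2.39e-07, edgeR) and held under all alternatives run. Of the single steps, the heterozygous change from e18.5 to d2 (-0.37, adjusted p = 0.016) was lost without heterozygous e18.5 replicate 1 and with gene and repeat totals (-0.033). The knockout change from e16.5 to e18.5 (-0.40, adjusted p = 0.0238) was lost without knockout e18.5 replicate 2 and with no TMM factors, and the knockout change from e18.5 to d2 (-0.62, adjusted p = 1.79e-04) with gene and repeat totals.

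Ddx4, the germ granule helicase gene, dipped instead. Heterozygous libraries held 678, 627 and 509 CPM at e16.5, then 397, 387 and 393 at e18.5, then 407, 568, 511 and 416 at d2, and knockout libraries 679, 756 and 723, then 413, 358 and 369.8, then 525, 426, 593 and 534. Every e18.5 library lay below every library of the other ages of its genotype. It fell 1.54-fold and 1.89-fold from e16.5 to e18.5 (adjusted p = 0.00268 and 2.21e-05) and rose 1.36-fold to d2 in knockout cells (adjusted p = 0.00525). The rise in heterozygous cells did not pass (0.28, adjusted p = 0.0768). At d2 Ddx4 was below its e16.5 level in both genotypes (-0.35, adjusted p = 0.0318, and -0.47, adjusted p = 0.00434). The heterozygous call ended in 7 of 15 alternatives, among them the replicate block (adjusted p = 0.0719) and leaving out e16.5 replicate 1 or 2 or d2 replicate 1 or 4, and its sign turned with gene and repeat totals (0.051). The knockout call was lost with gene and repeat totals.

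Exd1 and Fkbp6, the cofactor genes, had means in a different order of ages in the 2 genotypes, as had Gpat2, Pnldc1 and Pld6. In heterozygous cells Exd1 was lowest and Fkbp6 highest at e18.5, and in knockout cells both were lowest at d2. The means of Gpat2, Pnldc1 and Pld6 were highest at d2 in heterozygous and at e16.5 in knockout cells. Exd1 held 13.8, 17.0 and 15.8 CPM at e18.5, then 14.6, 15.7, 20.97 and 23.4 at d2 in heterozygous libraries, overlapping its e16.5 values. In knockout libraries it held 18.9, 19.995 and 16.5 and 13.4, 16.6, 16.7 and 13.8 CPM, all below the e16.5 libraries. It fell 1.77-fold from e16.5 to e18.5 (adjusted p = 0.00769) and 2.16-fold to d2 (adjusted p = 1.51e-04) in knockout cells, under all alternatives run. In heterozygous cells the log2 fold changes were -0.27 and -0.0046 (adjusted p = 0.457 and 0.99). Fkbp6 held 198, 233 and 219 CPM at e16.5, then 278, 244 and 255 at e18.5, then 205, 222, 132 and 146 at d2 in heterozygous libraries, and 303, 203 and 237, then 165, 231 and 289.9, then 224, 179, 147 and 141 in knockout libraries. Its groups overlapped in every knockout step. The heterozygous fall from e18.5 to d2 (-0.55, adjusted p = 0.0175) was lost without heterozygous e18.5 replicate 1 or d2 replicate 3 and with gene and repeat totals. The knockout fall over the span (-0.52, adjusted p = 0.0299) was lost without knockout e16.5 replicate 1 or d2 replicate 3 or 4, with no TMM factors, with gene and repeat totals and with the replicate block (adjusted p = 0.0746).

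**Figure D4:**
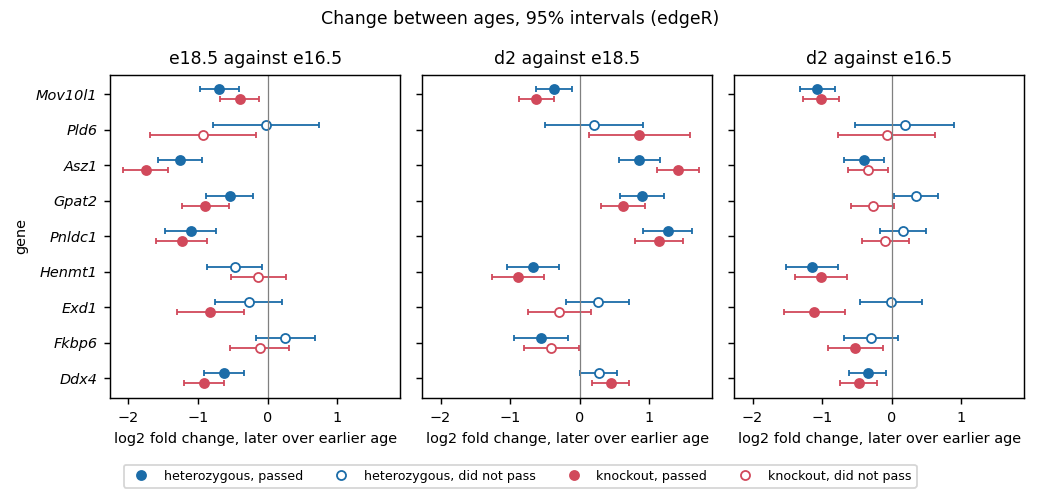
Log2 fold change between ages for each gene in heterozygous and knockout cells, with 95% intervals from the joint edgeR fit. Asz1, Gpat2, Pnldc1, Ddx4 and Pld6 are below 0 from e16.5 to e18.5 and above 0 from e18.5 to d2 in both genotypes.

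Whether the knockout effect itself differed between ages was tested by interaction contrasts. None of the 9 passed for e18.5 against e16.5, d2 against e18.5 or d2 against e16.5, where 0.0967%, 0.526% and 0.8% of all genes passed. In the same order 1, 1 and 2 members had an unadjusted p under 0.05 (edgeR). So had 1190, 2508 and 2168 of the 18619 genes tested. Exd1 had the smallest p, for d2 against e16.5 (-1.11, SE 0.310, unadjusted p = 0.00136, adjusted p = 0.106, edgeR). It passed with DESeq2 (adjusted p = 0.0274) and with gene and repeat totals (-1.32, adjusted p = 0.0477), and in no other of its 21 alternatives. Gpat2 followed (-0.63, adjusted p = 0.212), then Asz1 for d2 against e18.5 (0.56, adjusted p = 0.207). Without the d2 library labelled knockout replicate 2, 0 of 9 passed in the 2 contrasts that use d2, and DESeq2 called 0 members in the 2 contrasts other than d2 against e16.5. The difference in course between genotypes was thus not past the edgeR test for any member.

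Among 23 other piRNA pathway genes, 21 of which the tables list, Gtsf1 was the only one called in a knockout comparison. Gtsf1, a zinc finger partner of PIWI proteins, was lower in knockout cells at e18.5 (log2 fold change -1.61, adjusted p = 5.58e-06, edgeR). At e16.5 and at d2, 0 of 21 passed, and 4 and 5 had an unadjusted p under 0.05 (edgeR). Among all genes tested, 1266 of 16384 and 2492 of 15343 did. With age, 1 of the 21 rose and 12 fell from e16.5 to e18.5 in heterozygous cells (7.63% and 10.2% of all genes). In knockout cells 1 rose and 17 fell (17.5% and 17.7%). From e18.5 to d2, 4 rose and 11 fell in heterozygous (24.1% and 27%) and 3 and 13 in knockout cells (25.3% and 29.7%). Over the span 4 rose and 15 fell (20.5% and 22.7%), and 2 rose and 18 fell (20.8% and 21.9%). The median log2 fold change of those 21 from e18.5 to d2 was -0.55 in heterozygous and -0.75 in knockout cells, and that of all genes -0.084 and -0.11. The 9 biogenesis factors had medians of 0.26 and 0.45, with single values from -0.67 to 1.27 and from -0.88 to 1.42. The 6 broadly expressed relatives of members had medians of 0.45 and 0.31, with 3 and 2 called higher and 0 lower.

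The genes most like each member over the 20 libraries were named by Pearson's r of log2 CPM among 9575 candidates, as a description. They were Map2k7 for Mov10l1 (0.977), Il17rd for Asz1 (0.968), Phb for Gpat2 (0.968), Cdca8 for Pnldc1 (0.968), Hnrnpu for Ddx4 (0.961) and Tpp1 for Henmt1 (0.960). Exd1, Fkbp6 and Pld6 had weaker best matches, Lamb1 (0.870), Mrpl30 (0.811) and Gpi1 (0.793). The points share 3 ages and 2 genotypes. Among the 36 pairs of members Asz1 and Ddx4 had the highest r (0.900), and 0.776 remained for that pair after subtracting group means. Gpat2 and Pnldc1 followed (0.886, and 0.234 within groups), then Asz1 and Pnldc1 (0.883, and 0.204 within groups). Mov10l1 and Henmt1 had an r of 0.851 over all libraries and -0.239 within groups.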

How the data were processed

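RNA of sorted germ cells was measured in 20 libraries of 6 groups. The deposited tables hold raw counts per gene symbol and repeat name, 1 table per age. The submitters' processing notes name STAR, featureCounts, edgeR and Bowtie with build mm9, with no versions or roles. Treatment of multiply placed reads and strand is not given in the sources used here. PicoPure extraction and Ovation amplification are given per the labels' protocols, and amplified reads are not independent molecules. Tables of repeat families were not used here.

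Gene rows were fitted with edgeR 4.0.16 in R 4.3.3 (filterByExpr with at least 10 counts in enough libraries and 15 in total, TMM factors, robust quasi-likelihood F test). Genotype was tested within each age, and ages and interactions in 1 fit of all libraries on 23853 shared symbols, of which 18619 were tested. P-values were adjusted by Benjamini-Hochberg over all genes tested, with a threshold of 0.05. Alternatives were DESeq2 1.42.0, 3 other scalings, 2 other filters, a replicate block, a marker covariate, other sample sets and each library left out. The fits were tested on simulated data. Replicates of a group differed by more than counting noise (lowest chi-square per degree of freedom 9.97).

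Labels give the genotypes the same replicate numbers without saying that they mark litters or batches. At e18.5 same-numbered libraries deviated together over genes (r = 0.208, 0.124 and 0.159), and blocking by number there called 0 of 9 members.

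Named genes are the 9 members, Tex15, other piRNA genes called in a knockout comparison, relatives of members and the genes most like each member over the libraries (prior count 2, mean log2 CPM of at least 3). Members and lists were chosen with earlier results of these data known.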

Additional observations from a re-analysis of the deposited data

How the results depend on the processing

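In 50 member results the gene was called, had an unadjusted p under 0.05 (edgeR) or had groups without overlap. Of their 760 alternative values, 689 kept their direction and side of the threshold, 46 lost the call, 24 gained one and 1 changed sign. That was Ddx4 for d2 against e16.5 in heterozygous cells, at 0.051 with gene and repeat totals. The 58 other member results gave 1004 alternative values. Of these 941 kept direction and side, 2 gained a call and 61 changed sign, reaching at most 0.377 in size. The number of members called at d2 in the genotype comparison ran from 0 to 1 when a library was left out. From e16.5 to d2 in heterozygous cells it was 4, and 2 to 4 with a library left out and 2 in a fit of only the 2 groups compared. In knockout cells it was 5, and 3 with gene and repeat totals. For the knockout effect at d2 against e16.5 it was 0, and 1 with DESeq2 and 1 with gene and repeat totals. The cause of these differences was not tested, except that leaving out libraries leaves fewer samples. Numbers of members called in the remaining comparisons stayed within 1.5 times under every alternative run.

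Counts over all genes moved more. Genotype calls at e16.5 were 1, and 22 with DESeq2, 2 with gene and repeat totals or no filter, 0 with all ages in 1 fit and 25 without heterozygous replicate 1. At e18.5 they were 422, and 24 with the marker covariate, 152 with all ages in 1 fit, 281 with heterozygous replicate 2 left out and 274 with knockout replicate 2 left out. At d2 they were 430, and 820 with DESeq2, 770 with all ages in 1 fit, 219 without heterozygous replicate 1 and 187, 209 and 235 without knockout replicate 1, 3 and 4. From e16.5 to e18.5 heterozygous calls went from 3313 to 1740 without e16.5 replicate 1 and likewise without replicate 2. Interaction calls were 18, 98 and 149 for e18.5 against e16.5, d2 against e18.5 and d2 against e16.5, then 69, 387 and 325 with DESeq2, and 3 to 38, 31 to 226 and 92 to 237 with a library left out.

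Scaling moved the balance of all genes called higher and lower. At d2 in the genotype comparison 311 and 119 became 191 and 184 with no TMM factors and 140 and 165 with gene and repeat totals. With no TMM factors the first age step went from 1420 and 1893 to 1792 and 1236 in heterozygous and from 3257 and 3287 to 4342 and 1975 in knockout cells, and the span from 3811 and 4221 to 4686 and 3439 and from 3872 and 4078 to 4750 and 3291. With gene and repeat totals the span gave 6130 and 2490 and 4620 and 3108, and the second step went from 4494 and 5030 to 6361 and 3473 and from 4704 and 5534 to 6127 and 4114.

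The replicate block fits replicate numbers as pairs within each age in the genotype and interaction comparisons. It called 0 of 9 members at each age in the genotype comparisons and in each interaction. It moved all-gene calls at e18.5 from 422 to 599, at d2 from 430 to 235 and the interaction calls to 6, 48 and 100. Among members it ended 3 age calls, given with the results, and changed no other. Same-numbered libraries correlated at -0.411, 0.146 and 0.148 at e16.5 and at 0.0453, -0.289, 0.161 and -0.188 at d2, and not every library correlated best with its own number there. Depth limits Pld6 most, at 34 to 132 counts per library. The 8 other members held at least 125 counts in every library.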

Other observations

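Broadly expressed relatives of 6 members were measured beside them. In the genotype comparisons at e16.5, e18.5 and d2, 0 of 6 passed, and 1, 1 and 2 had an unadjusted p under 0.05 (edgeR). Among all genes tested, 1266 of 16384, 2045 of 18075 and 2492 of 15343 had one. Parn, the exonuclease related to Pnldc1, measured 36.1 ± 4.51, 28.5 ± 0.727 and 68.3 ± 7.57 CPM (SD, n = 3, 3 and 4) in heterozygous cells at e16.5, e18.5 and d2. It rose from e18.5 to d2 in heterozygous (log2 fold change 1.26, adjusted p = 2.65e-06, edgeR) and knockout cells (1.49, adjusted p = 2.03e-07), as Pnldc1 did, and was above its e16.5 level at d2 in both. Mov10, the relative of Mov10l1, measured 45.6 ± 10.3, 52.8 ± 15.9 and 77.6 ± 15.4 CPM and rose from e18.5 to d2 in heterozygous cells (0.55, adjusted p = 0.0204), where Mov10l1 fell. In knockout cells it measured 55.3 ± 7.62, 48.7 ± 5.10 and 57.7 ± 8.26 CPM and that step did not pass (0.24, adjusted p = 0.302). The difference between these courses was not tested.

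Exd2, related to Exd1, measured 88.6 ± 15.3, 60.5 ± 1.92 and 111 ± 13.3 CPM and rose from e18.5 to d2 in both genotypes (0.87 and 1.04, adjusted p = 3.44e-04 and 4.45e-05). Ddx3x, a DEAD-box helicase gene like Ddx4, measured 418 ± 98.5, 241 ± 62.7 and 272 ± 75.2 CPM and fell from e16.5 to e18.5 in both (-0.79 and -1.13, adjusted p = 0.0129 and 3.66e-04). Fkbp4 measured 205 ± 3.46, 131 ± 35.1 and 166 ± 74.0 CPM and Gpam 10.9 ± 0.696, 8.88 ± 2.51 and 10.7 ± 3.77 CPM, with no change past the test in heterozygous cells. In knockout cells Fkbp4 measured 243 ± 29.3, 126 ± 21.2 and 165 ± 7.78 CPM, falling from e16.5 to e18.5 (-0.94, adjusted p = 0.00467) and over the span (-0.56, adjusted p = 0.0481), and Gpam 8.37 ± 0.597, 5.36 ± 0.871 and 5.69 ± 1.13 CPM with no change past the test. Parn and Exd2 also fell from e16.5 to e18.5 in knockout cells (-0.56 and -0.86, adjusted p = 0.0237 and 0.00147, edgeR). Thus 4 of the 6 relatives fell there (17.7% of all genes), where 1 fell in heterozygous cells (10.2% of all genes). That difference was not tested as such.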
